A study of Mus musculus with 14 samples.

Results

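The insulin-like growth factor (IGF) axis was followed in mouse embryonic fibroblasts (MEFs) labelled as control or knockout for Tip60, a lysine acetyltransferase encoded by Kat5. The 10 genes studied were taken from the count files by their Entrez identifiers, of 26270 identifiers in all. They were the ligand Igf1, the receptor Igf1r, the binding proteins Igfbp2, Igfbp3, Igfbp4, Igfbp5, Igfbp6 and Igfbp7, and the proteases Pappa and Pappa2. All 10 were found in each of the 14 libraries and passed the filter on low counts.

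Control cells were Tip60+/+ and knockout (KO) cells were Tip60-/-, both isolated from E13.5 embryos and grown in 3% O2. A dose of 250 nM 4-hydroxytamoxifen (4-OHT) was given to induce deletion, and RNA was taken at day 3 or day 5. Each genotype gave 3 libraries at day 3 and 4 libraries at day 5. The same treatment text is attached to all samples and does not separately say that control cells received the drug, and no label names the Cre driver. The libraries came from 8 embryos, and most embryos gave a library at each day. Replicates 1 and 2 of control at day 3 have the same embryo identifier. No embryo or identifier prefix was found in both genotypes (218 and 219 in control, 136, 153 and 159 in KO), but the labels also number litters, and there 1 and 2 occur in both genotypes and 3 in KO only. Whether equal numbers mark the same litter is not stated. At day 3 all controls have litter number 1 and the KO libraries have 2 or 3, so at that day litter and genotype cannot be told apart by either reading. At day 5 they cannot be told apart by the identifier prefixes either, but could be if equal numbers mark the same litter. Males gave 5 of 7 KO libraries and 1 of 7 control libraries, the latter being control day 5 replicate 4 from embryo 219-e6-I.

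Expression is given as CPM, a gene's count scaled to a common library total. Total counts ran from 2187168 to 39203154 per library, the lowest in KO day 3 replicate 3. Kat5 lay between 17.3 and 21.1 CPM in KO libraries and between 29.8 and 32.3 CPM in controls, so the groups did not overlap in the targeted gene (log2 fold change -0.68 ± 0.086 at day 3 and -0.75 ± 0.071 at day 5; Kat5 adjusted p = 2.02e-05 and 1.59e-06, edgeR). Kat5 RNA in KO was 0.62 of the control level at day 3 and 0.60 at day 5. Counts over the whole gene cannot tell intact RNA from RNA that lacks a deleted part, and protein was not measured. At day 3, markers of several cell types differed in summed CPM without overlap between control and KO. The 10 fibroblast markers summed to 18208 to 22492 CPM in control and 30907 to 33356 CPM in KO (5 of 10 called higher), the 6 neural and glial markers to 160.1 to 254 and 315 to 425 CPM (2 of 6 called higher), and the 5 epithelial markers to 130 to 205 and 38.3 to 79.7 CPM (1 of 4 tested called higher, 1 lower). Macrophage markers summed to 82.7 to 111 CPM in control and 51.5 to 72.9 CPM in KO (5 of 7 called lower). Endothelial markers summed to 11.6 to 15.8 and 16.0 to 17.9 CPM (1 of 4 tested called higher). Of the muscle markers 4 of 4 tested were called higher, but their sums overlapped, at 56.5 to 108 CPM in control and 105 to 194 CPM in KO. Over all tested genes 24.6% were called higher and 26.2% lower at day 3. At day 5 the fibroblast sums overlapped, at 23326 to 28234 CPM in control and 18844 to 23559 CPM in KO (3 of 10 called higher, 3 lower). The epithelial sums did not overlap, at 40.4 to 63.6 CPM in control and 28.7 to 38.0 CPM in KO (1 of 4 tested called higher, 1 lower). Nor did the endothelial sums, at 5.70 to 8.87 and 14.6 to 18.2 CPM (2 of 4 tested called higher). Over all tested genes 26.3% were called higher and 26.2% lower at day 5. The part of these markers in the results below was not tested. The 8 markers of cartilage and bone summed to 73.7 to 167 CPM in control at day 3, 2285 to 2682 CPM in KO at day 3 and 1826 to 3783 CPM in KO at day 5. Control day 5 replicate 4 stood apart from the other controls of its day, with 2592 CPM of these markers against 181 to 356 CPM. Because several of the genes below are far from the other controls in that library, several results are given with and without it. For Igfbp3 and Igfbp5, where it was the lowest day 5 control, the text gives the range over alternative settings, which include leaving it out.

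As background, IGF1 and IGF2 are secreted growth factors that act through the receptor tyrosine kinase IGF1R, which signals through insulin receptor substrates to PI3K and AKT. In extracellular fluid most IGF is held by the high-affinity binding proteins IGFBP2 to IGFBP6 and their relatives, while IGFBP7 binds IGF with low affinity. PAPP-A and PAPP-A2 are metalloproteases of the pappalysin family that cut binding proteins, IGFBP4 and IGFBP5 among them, and free the ligand. Fibroblasts secrete several of these proteins, so the axis can act on the cells that make it.

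Igfbp2 and Igfbp5 are neighbours on chromosome 1 and point towards each other, with 5590 bases between their ends. Both were higher in KO cells, whereas Igfbp7, the binding protein gene with the highest level per length in control cells, did not pass the test at either day. The 250 bases before the start of these 3 genes are shown because they are the promoters of the neighbouring pair and of the abundant member that was not called. Sequences are from RefSeq on GRCm38.p6, the mm10 build, read 5' to 3' on the gene's strand. Capitals mark matches, on either strand, to the TATA box TATAAA, the GC box GGGCGG, the CCAAT box CCAAT, the E-box CACGTG and the AP-1 sites TGACTCA and TGAGTCA.
Igfbp2, chr1:72824230-72824479, plus strand: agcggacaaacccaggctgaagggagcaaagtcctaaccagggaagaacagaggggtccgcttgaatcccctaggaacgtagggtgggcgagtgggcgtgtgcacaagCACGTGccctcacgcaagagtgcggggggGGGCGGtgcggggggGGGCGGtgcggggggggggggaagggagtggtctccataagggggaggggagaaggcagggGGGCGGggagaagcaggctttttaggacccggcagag
Igfbp5, chr1:72874866-72875115, minus strand: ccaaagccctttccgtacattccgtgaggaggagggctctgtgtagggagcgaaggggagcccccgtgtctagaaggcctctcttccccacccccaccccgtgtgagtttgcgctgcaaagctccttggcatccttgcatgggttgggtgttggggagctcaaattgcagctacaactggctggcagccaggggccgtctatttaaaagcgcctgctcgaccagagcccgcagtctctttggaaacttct
Igfbp7, chr5:77408046-77408295, minus strand: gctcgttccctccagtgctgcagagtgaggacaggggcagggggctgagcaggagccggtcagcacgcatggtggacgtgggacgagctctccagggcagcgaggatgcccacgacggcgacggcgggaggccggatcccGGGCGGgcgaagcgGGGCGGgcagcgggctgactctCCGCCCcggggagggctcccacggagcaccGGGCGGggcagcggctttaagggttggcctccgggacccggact

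The Igfbp2 window had 3 GC boxes, whose first bases lie at -113, -98 and -37 from the start, and an E-box at -142. The Igfbp5 window had none of these letters. The Igfbp7 window had 4 GC boxes, at -110, -96, -74 and -44. GC content was 67.2% for Igfbp2, 58.8% for Igfbp5 and 74% for Igfbp7, against a median of 52.4% over 32851 promoters of the table. Of those promoters, 32.7% held a GC box, 33.8% a CCAAT box, 12.4% a TATA box, 6.02% an E-box and 4.46% an AP-1 site. Among the 9 members with an entry, Igf1r had 2 GC boxes, Igfbp4 had a TATA box at -28, Igf1 and Pappa2 each had a CCAAT box, and Igfbp6 had a TATA box and 2 CCAAT boxes. Igfbp3 had no match. No motif was common to the members that were higher in KO cells.

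The comparison of KO with control cells asks which genes of the axis differ when Tip60 is deleted. At day 3, Igf1, Igfbp2, Igfbp3, Igfbp4, Igfbp5 and Pappa2 were higher in KO and no member was lower. At day 5, Igf1 and Igfbp2 to Igfbp5 were higher and again no member was lower. Igf1r, Igfbp6, Igfbp7 and Pappa were not called at either day. The background is high: 50.9% of the 14327 tested genes were called at day 3, 24.6% as higher and 26.2% as lower in KO. At day 5, 52.5% were called, 26.3% as higher and 26.2% as lower. The members' median log2 fold change was 1.27 at day 3 and 0.76 at day 5, beside medians over all tested genes of -0.0036 and 0.021. In bulk RNA, fewer or more cells of a type and less or more RNA per cell cannot be told apart.

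**Figure D1:**
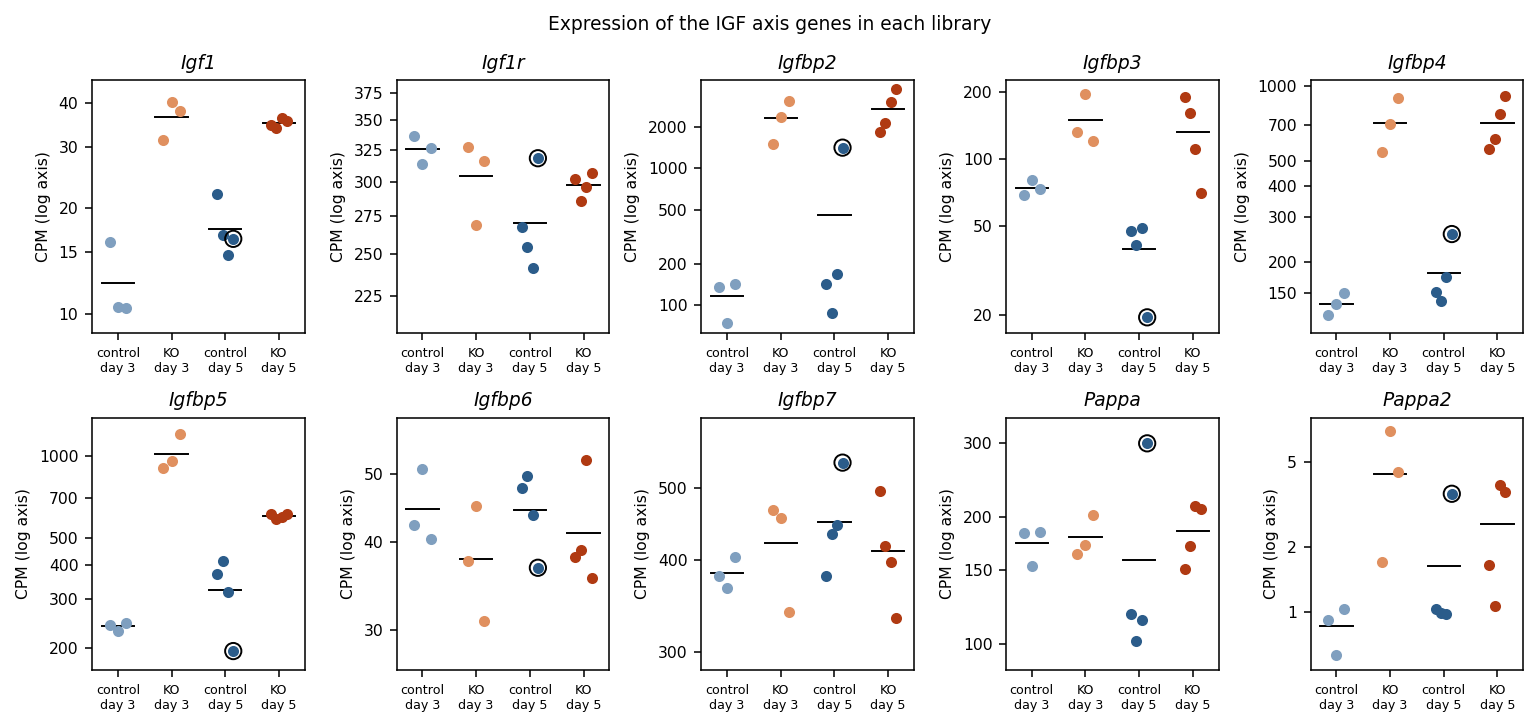
CPM of the 10 genes in each library on a log axis, by genotype and day, with a bar at the group mean and a ring around control day 5 replicate 4. KO points of Igf1 and Igfbp2 to Igfbp5 lie above all control points of the same day, and the ringed library lies near the KO points for Igfbp2.

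Igf1 encodes the ligand and was higher in every KO library at both days (identifier 16000; chromosome 10, 87858265 to 87937047, plus strand, where it overlaps the antisense-named long noncoding RNA gene Igf1os). KO libraries held 31.4, 40.4 and 37.9 CPM at day 3 against 16.0, 10.4 and 10.4 CPM in control. At day 5 the KO libraries held 34.7, 33.9, 36.3 and 35.5 CPM and the controls 22.01, 16.8, 14.7 and 16.4 CPM. The KO values were close together at both days, and the lowest of them was above the highest control. The log2 fold change was 1.56 ± 0.173 at day 3 (SE; 2.95-fold; adjusted p = 6.91e-06, edgeR's quasi-likelihood test) and 0.99 ± 0.140 at day 5 (1.99-fold, adjusted p = 4.75e-05). Exact two-sided permutation tests on log2 CPM gave p = 0.1 at day 3, the smallest p that 20 labelings allow, and p = 0.0286 at day 5, the smallest of 70. The same exact p values were found for Igfbp2, Igfbp3, Igfbp4 and Igfbp5 at both days and, at day 3, for Pappa2, since the groups of these genes did not overlap. Over all tested genes the groups did not overlap with KO higher for 28.2% at day 3 and 23.5% at day 5.

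Igf1r encodes the receptor through which both IGF ligands signal (identifier 16001; chromosome 7, 67952257 to 68233668, plus strand, overlapping 2 long noncoding RNA genes). KO libraries averaged 304 ± 30.9 CPM and controls 326 ± 11.4 CPM at day 3 (SD, n = 3 each), and 298 ± 8.88 and 271 ± 33.6 CPM at day 5 (n = 4 each). The groups overlapped at both days. KO against control gave -0.09 ± 0.0996 at day 3 (adjusted p = 0.45) and 0.14 ± 0.0858 at day 5 (adjusted p = 0.191). At day 5 the 3 controls other than replicate 4 held 268, 255 and 241 CPM, below all 4 KO libraries, and replicate 4 held 318 CPM, above them. Without replicate 4 the day 5 difference was 0.22 ± 0.0728 (adjusted p = 0.0151).

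Igfbp2, a binding protein that carries both ligands, had the largest fold change of the members at both days. It lies on chromosome 1, 72824480 to 72852474, plus strand (identifier 16008). KO libraries held 1517, 2396 and 3106 CPM at day 3, and controls held 135, 73.2 and 142 CPM. At day 5 the KO libraries held 1845, 2141, 3059 and 3849.6 CPM and controls held 142, 86.6, 168 and 1420.3 CPM. The control at 1420.3 CPM is replicate 4. It lay close under the lowest KO library, so the groups still did not overlap. By litter number at day 5, the KO library of number 1 held 1845 CPM beside 3 controls at 86.6 to 168 CPM, and that of number 2 held 2141 CPM beside the control at 1420.3 CPM. KO exceeded control by a log2 fold change of 4.33 ± 0.988 at day 3 (20.1-fold, adjusted p = 0.00343) and 2.58 ± 0.788 at day 5 (5.99-fold, adjusted p = 0.0162). Without control day 5 replicate 4, the day 5 value was 4.37 ± 0.424 (adjusted p = 8.49e-06), near that of day 3. With the litter number as a covariate, added after seeing the data, Igfbp2 was 2.27 ± 0.833 at day 3 (adjusted p = 0.0635), which ended the call, and 2.44 ± 0.579 at day 5 (adjusted p = 0.00764). No litter number occurs in both genotypes at day 3, so the litter difference between them was estimated at day 5 only. There control replicate 4 is the only control of number 2. This holds for every day 3 value given with that covariate, which therefore cannot separate litter from genotype at day 3. At day 5 the covariate separates them only if equal numbers mark the same litter, which is not stated.

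The summed cartilage and bone markers varied together with Igfbp2 across the libraries. In both, the 7 KO libraries and control day 5 replicate 4 were high and the other 6 controls low. Col2a1, the main collagen of cartilage, was called higher in KO at day 3 (4.90, adjusted p = 0.00298) but not at day 5 (1.74, adjusted p = 0.0958). Without control day 5 replicate 4, Col2a1 was higher at day 5 too (3.63 ± 0.499, adjusted p = 0.000113). Of the 5 marker genes tested, 5 were higher in KO at day 3 and 3 at day 5, or 5 at day 5 without that library, while 2 of the 8 (Ibsp and Matn1) had no count in any control library at day 3 and 1 (Ibsp) had none in control at day 5. Col2a1 made up most of the sum, at a mean of 2281 CPM in KO and 76.4 CPM in control at day 3. Within the 7 KO libraries, from 4 embryos, Igfbp2 and the marker sum had Pearson's r = 0.795 and Spearman's rho = 0.786 as a description. The part of these markers in the Igfbp2 difference was not tested.

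**Figure D2:**
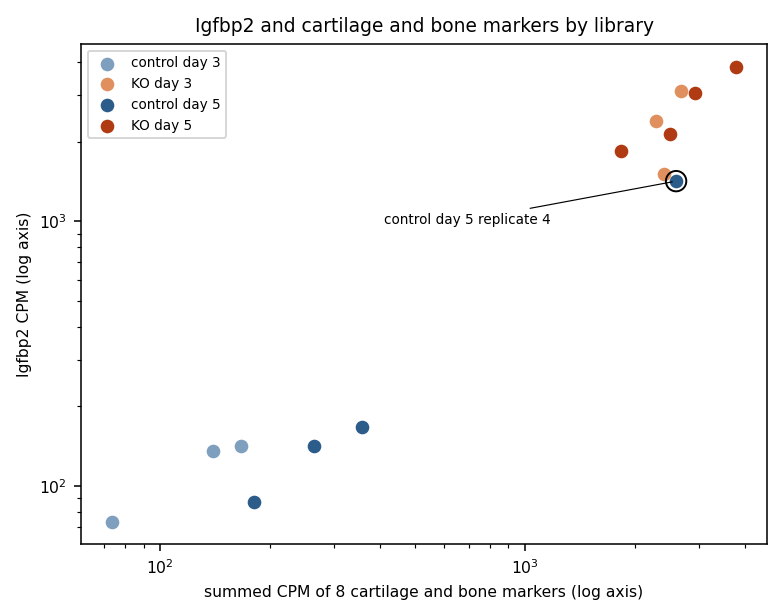
Igfbp2 CPM against the summed CPM of 8 cartilage and bone markers in the 14 libraries, both on log axes. The 6 controls with identifier prefix 218 lie at lower left, at 73.2 to 168 CPM of Igfbp2, and control day 5 replicate 4 (ringed) lies beside the KO libraries at upper right.

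Igfbp4, a binding protein that pappalysins cut, was higher in every KO library at both days (identifier 16010; chromosome 11, 99040005 to 99052655, plus strand). KO libraries held 545, 702 and 891 CPM at day 3 against 122, 136 and 149.9 CPM in control. At day 5 they held 560.4, 612, 768 and 913 CPM against 152, 139.7, 173 and 257 CPM. The highest of those controls was again replicate 4, well under the KO range. The difference was 2.39 ± 0.255 on the log2 scale at day 3 (5.23-fold, adjusted p = 1.01e-05) and 1.98 ± 0.217 at day 5 (3.95-fold, adjusted p = 1.02e-05). The change passed the test under all 26 alternative settings at each day.

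Igfbp5, a matrix-associated binding protein, was higher in KO at both days but by less at day 5 (identifier 16011; chromosome 1, 72858065 to 72874865, minus strand). KO libraries held 903, 954 and 1198 CPM at day 3 against 241, 230.0 and 245 CPM in control. At day 5 they held 612, 589, 597 and 613 CPM, a narrow range, against 371, 413, 318 and 194 CPM. Here control day 5 replicate 4 was the lowest library, away from the KO values. On the log2 scale the difference was 2.09 ± 0.206 at day 3 (4.26-fold, adjusted p = 3.51e-06) and 0.89 ± 0.173 at day 5 (1.86-fold, adjusted p = 0.000717). Over 26 alternative settings the day 5 value ran from 0.67 to 1.09 and was called in each. The difference between the effects, day 5 minus day 3, was -1.20 ± 0.263 (adjusted p = 0.00905), the only such difference called among the members. Of all tested genes 14.3% were called there, 7.16% as higher and 7.15% as lower, or 1508 and 705 genes with unscaled library totals against 1026 and 1025.

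Igfbp3, which carries most IGF in the circulation, was higher in KO with a wide spread between KO libraries (identifier 16009; chromosome 11, 7206086 to 7215498, minus strand, 3539 bases from Igfbp1, which had no counts in any library). KO libraries held 132, 197 and 121 CPM at day 3 against 69.1, 80.9 and 73.7 CPM. At day 5 they held 190.5, 161, 111 and 70.5 CPM against 47.6, 41.4, 49.4 and 19.5 CPM in control. The lowest KO library and the lowest control at day 5 were both replicate 4. The log2 fold change was 0.98 ± 0.380 at day 3 (1.98-fold, adjusted p = 0.0481) and 1.77 ± 0.334 at day 5 (3.40-fold, adjusted p = 0.00097). The day 3 call was lost in 14 of 26 alternative settings, among them leaving out any single day 3 library, with adjusted p up to 0.138 without KO day 3 replicate 3 (0.76). The day 5 call was kept in all 26, where the value ran from 1.54 to 2.34. Summing the day 3 control libraries that share an embryo gave Igfbp3 an adjusted p of 0.0984.

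Igfbp6, which prefers IGF2, and Igfbp7, a low-affinity relative found in vessel walls and matrix, were not called. Igfbp6 averaged 37.9 ± 7.10 CPM in KO libraries and 44.6 ± 5.56 CPM in controls at day 3 (SD, n = 3 each), and 41.3 ± 7.55 and 44.5 ± 5.70 CPM at day 5 (n = 4 each). Its log2 fold changes were -0.27 ± 0.168 (adjusted p = 0.188) and -0.11 ± 0.139 (adjusted p = 0.521). Both groups overlapped at each day (identifier 16012; chromosome 15, 102144186 to 102149512, plus strand). Igfbp7 averaged 421 ± 70.1 CPM in KO libraries and 383 ± 19.1 CPM in controls at day 3, and 411 ± 66.6 and 450.2 ± 67.0 CPM at day 5. Its log2 fold changes were 0.13 ± 0.154 (adjusted p = 0.49) and -0.13 ± 0.133 (adjusted p = 0.426). Igfbp7 (identifier 29817; chromosome 5, 77349240 to 77408045, minus strand) overlaps Polr2b on the other strand by 89 bases, and with the strand setting of the counting not given, reads there cannot be assigned to either gene. In the female libraries alone, chosen after seeing the data and with 1 KO library a day assumed to vary like the controls, Igfbp7 was higher at day 3 by 0.31 ± 0.110 (adjusted p = 0.0327).

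**Figure D3:**
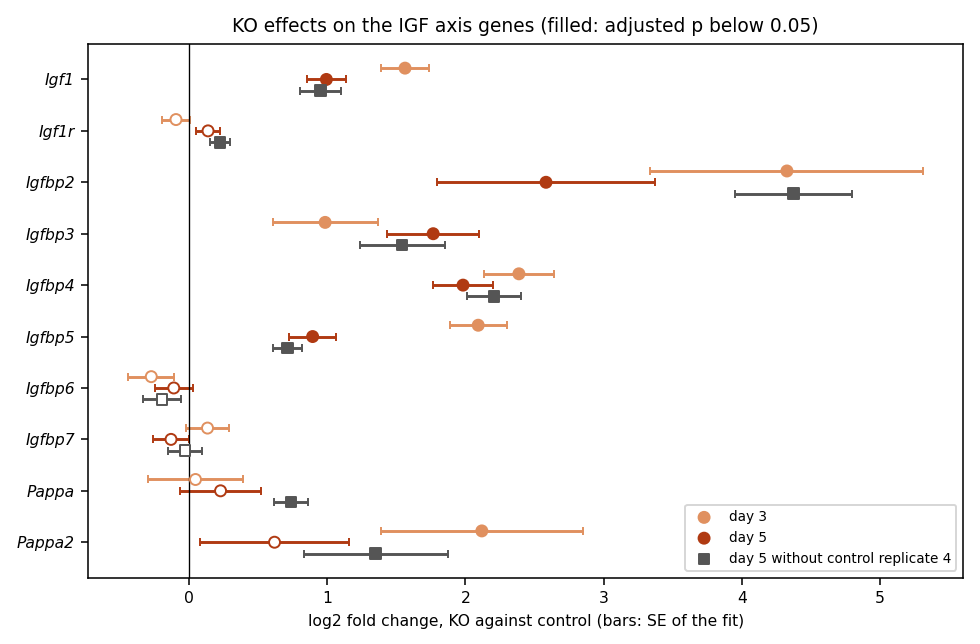
Log2 fold change of KO against control for the 10 genes at day 3, day 5 and day 5 without control replicate 4, with SE bars, filled where the adjusted p was below 0.05. Igfbp2 moves from 2.58 to 4.37 at day 5 when that library is left out, and Igf1r, Pappa and Pappa2 become called.

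To compare genes with each other, counts were divided by the gene length in the files (FPKM, here CPM per kilobase of gene). In control at day 3 the order of mean FPKM was Igfbp7 at 316 ± 15.7, Igfbp2 at 87.8 ± 28.5, Igfbp4 at 65.8 ± 6.65, Igfbp5 at 40.8 ± 1.35, Igfbp6 at 34.6 ± 4.32, Igfbp3 at 30.5 ± 2.44, Igf1r at 27.2 ± 0.950, Pappa at 15.8 ± 1.61, Igf1 at 1.57 ± 0.412 and Pappa2 at 0.0995 ± 0.0242 (SD, n = 3). Igfbp2 and Igfbp4 were within their spread of each other, as were Igfbp6 and Igfbp3. In KO at day 3 the order was led by Igfbp2 at 1759 ± 599, then Igfbp7 at 347 ± 57.8 and Igfbp4 at 344 ± 83.5, which did not differ beyond their spread. Igfbp5 followed at 174 ± 26.9, Igfbp3 at 61.3 ± 16.9, Igfbp6 at 29.4 ± 5.51 and Igf1r at 25.4 ± 2.58. Pappa at 16.3 ± 1.89, Igf1 at 4.68 ± 0.597 and Pappa2 at 0.516 ± 0.311 closed it.

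At day 5 Igfbp2 again led in KO, Igfbp4 and Igfbp7 lay within their spread of each other, and Igfbp5 followed, with Igfbp2 at 2048 ± 685, Igfbp4 at 345 ± 77.1, Igfbp7 at 339 ± 54.9 and Igfbp5 at 103 ± 2.01 FPKM (SD, n = 4). Below them were Igfbp3 at 54.5 ± 21.7, Igfbp6 at 32.03 ± 5.86, Igf1r at 24.9 ± 0.742, Pappa at 16.8 ± 2.74, Igf1 at 4.49 ± 0.132 and Pappa2 at 0.299 ± 0.165. In control at day 5, Igfbp7 was at 371 ± 55.3 and Igfbp2 at 341 ± 485, a mean that replicate 4 sets. The other control levels at day 5 were Igfbp4 at 87.2 ± 25.6, Igfbp5 at 55.4 ± 16.2, Igfbp6 at 34.5 ± 4.43, Igf1r at 22.6 ± 2.80, Igfbp3 at 16.1 ± 5.62, Pappa at 14.4 ± 8.53, Igf1 at 2.23 ± 0.406 and Pappa2 at 0.191 ± 0.149.

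The summed FPKM of Igfbp2 to Igfbp7 was higher in KO libraries. It was 576, 535 and 616 in control at day 3 and 2027, 2794 and 3325 in KO. At day 5 it was 613, 616, 686 and 1708 in control and 2278, 2447, 3187 and 3772 in KO. Igfbp2 made up most of the difference: its share of the sum was 15.1 ± 4.15% in control and 63.7 ± 7.03% in KO at day 3 (SD, n = 3 each), and 27.2 ± 23.8% and 68.9 ± 6.98% at day 5 (n = 4 each). Igfbp7 went the other way as a share, from 55.0 ± 1.31% to 13.6 ± 5.29% at day 3 and from 47.2 ± 14.3% to 12.4 ± 4.61% at day 5, while its own level was not called as different. Igfbp4 held 11.4 ± 1.06% in control and 12.7 ± 0.485% in KO at day 3, and 10.6 ± 2.28% and 11.8 ± 0.204% at day 5. The shares are parts of a whole and cannot vary independently.

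**Figure D4:**
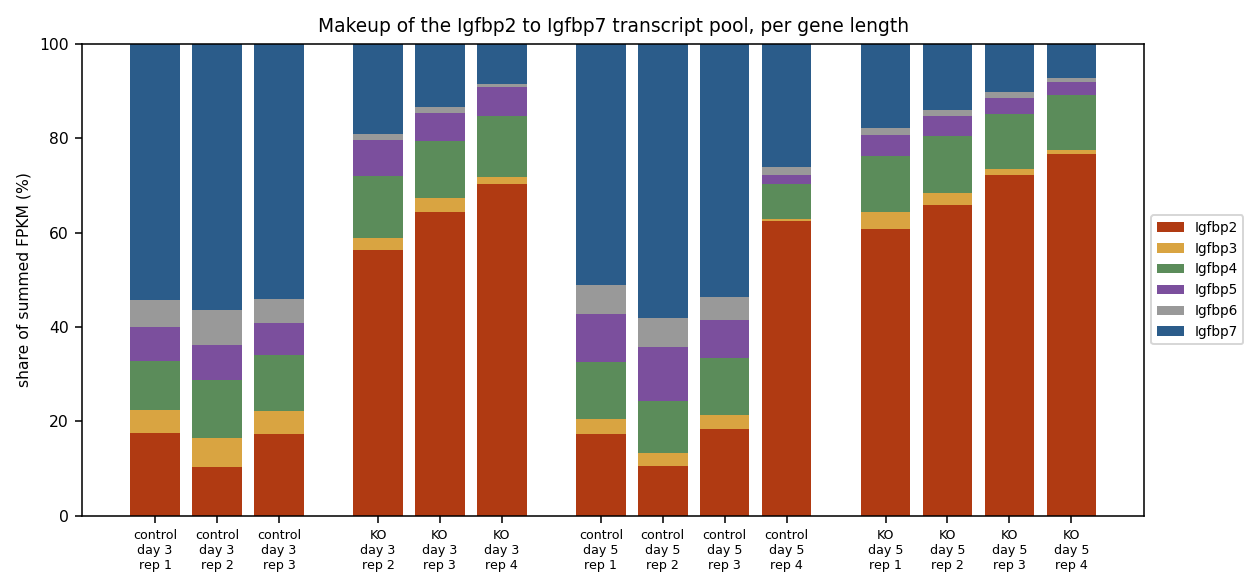
Share of Igfbp2 to Igfbp7 in their summed FPKM, in percent, as stacked bars for each library. Igfbp2 takes 56.3% to 76.7% in the 7 KO libraries and 62.5% in control day 5 replicate 4, against 10.3% to 18.4% in the other 6 controls, where Igfbp7 takes the largest share.

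The proteases Pappa and Pappa2 differed from each other in level and in response. Pappa held 163, 171 and 203 CPM in KO and 184, 153 and 184 CPM in control at day 3 (identifier 18491; chromosome 4, 65124174 to 65357509). At day 5 KO libraries held 151, 170.5, 212 and 209 CPM and controls held 118, 102, 114 and 299 CPM. The 4 KO libraries lay above 3 of the controls and below replicate 4. KO minus control was 0.05 ± 0.344 at day 3 (adjusted p = 0.927) and 0.23 ± 0.295 at day 5 on the log2 scale (adjusted p = 0.536). Without control day 5 replicate 4, Pappa was higher in KO at day 5 by 0.74 ± 0.123 (adjusted p = 0.000152). With the litter number as a covariate it was -0.86 ± 0.282 at day 3 (adjusted p = 0.0373) and -0.09 ± 0.198 at day 5 (adjusted p = 0.742).

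Pappa2 was the lowest of the members, with 6 to 77 counts per library (identifier 23850; chromosome 1, 158711727 to 158960451, minus strand). At day 3 it held 1.71, 7.04 and 4.53 CPM in KO, from 65, 15 and 45 counts, and 0.913, 0.623 and 1.03 CPM in control, from 8, 8 and 11 counts. At day 5 it held 1.64, 1.07, 3.91 and 3.63 CPM in KO and 1.03, 0.986, 0.978 and 3.56 CPM in control, where replicate 4 was again within the KO range. The log2 fold change was 2.12 ± 0.728 at day 3 (4.34-fold, adjusted p = 0.0265) and 0.62 ± 0.538 at day 5 (adjusted p = 0.35). The male KO embryos 153-e3 and 153-e5 were higher at both days than the female embryo 136-e2-II, while the male embryo 159-e1, sampled at day 5 only, was at 1.64 CPM, nearer to the female's 1.07 CPM. The day 3 call was lost with sex as a covariate (1.01, adjusted p = 0.0582), with the litter number as a covariate (0.52, adjusted p = 0.536) and with the 2 day 3 control libraries of 1 embryo summed (2.09, adjusted p = 0.0556). For Pappa2, without control day 5 replicate 4 the day 5 difference was 1.35 ± 0.521 (adjusted p = 0.0379).

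Without control day 5 replicate 4, 8 of the 10 members were called as higher at day 5, where 58.8% of 14239 tested genes were called and 30.3% were higher. The 2 not called were Igfbp6 at -0.20 ± 0.135 (adjusted p = 0.229) and Igfbp7 at -0.03 ± 0.126 (adjusted p = 0.861). At day 3 the same 6 members were called with that library and without it (55.9% of genes called, 27.4% higher), where it enters only through the shared estimate of spread, the scaling and the filter.

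The comparison of days asks what differs over time within a genotype. In KO cells, Igfbp5 fell from 1018 ± 158 to 603 ± 11.8 CPM, a log2 change of -0.76 ± 0.184 (adjusted p = 0.016), and was the only member called, where 12% of tested genes were (4.98% higher, 7.06% lower). With unscaled library totals that split was 1679 higher and 626 lower, against 713 and 1012. Without KO day 3 replicate 4 it was -0.63 (adjusted p = 0.081). In control cells, Igf1 rose from 12.3 ± 3.22 to 17.5 ± 3.17 CPM (0.54 ± 0.162, adjusted p = 0.0174) and Igf1r fell from 326 ± 11.4 to 271 ± 33.6 CPM (-0.27 ± 0.0925, adjusted p = 0.0338), where 38.3% of tested genes were called (18.3% higher, 19.9% lower). Neither control call held in every alternative: leaving out control day 3 replicate 2, replicate 3 or control day 5 replicate 1 gave adjusted p = 0.0926, 0.0898 and 0.0568 for Igf1, and leaving out any single control other than day 5 replicate 4 gave 0.055 to 0.101 for Igf1r. Igfbp3 (-0.93 ± 0.354, adjusted p = 0.0572) and Igfbp5 (0.44 ± 0.187, adjusted p = 0.0783) were not called in control. A call was gained in 8 of 27 alternative settings for Igfbp3 and in 4 of 27 for Igfbp5. Without control day 5 replicate 4, Igfbp5 was higher at day 5 in control by 0.62 ± 0.108 (adjusted p = 0.000294) and Pappa lower by 0.64 on the log2 scale (-0.64 ± 0.130, adjusted p = 0.00128).

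Embryos sampled at both days allowed KO libraries to be followed by source. Igfbp2 was lowest in embryo 136-e2-II, higher in 153-e3 and highest in 153-e5 at day 3, and in the same order at day 5. Igfbp4 had the same order at both days. Embryo 159-e1, sampled at day 5 only, was the lowest of its day for both genes. Across the 7 KO libraries Igfbp2 and Igfbp4 had r = 0.965 and rho = 1, Igfbp2 and Pappa r = 0.899 and rho = 0.857, and Igfbp2 and Igfbp7 r = -0.881 and rho = -0.929. These are descriptions over libraries that share embryos. Igfbp2 and Igfbp3 had r = -0.692 and rho = -0.643. Across the 6 controls other than day 5 replicate 4, the same pairs gave r = 0.5 and rho = 0.771 for Igfbp4, r = 0.0934 and rho = 0.0857 for Pappa, r = 0.311 and rho = 0.657 for Igfbp7, and r = -0.179 and rho = -0.143 for Igfbp3. The negative relation of Igfbp2 with Igfbp7 and the positive relation with Pappa in KO libraries were thus not seen in these 6 controls. With replicate 4 included, the 7 controls gave r = 0.76 and rho = 0.429 for Pappa, and r = 0.855 and rho = 0.786 for Igfbp7. They gave r = 0.922 and rho = 0.857 for Igfbp4, and r = -0.843 and rho = -0.464 for Igfbp3. The relation with Pappa in controls thus depends on that library.

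The other genes of the IGF pathway were read from 6 lists with 55 genes, of which 49 were tested. Genes were called in both directions. At day 3, 18 were higher in KO, 16 were lower and 15 were not called. At day 5, 13 were higher, 19 were lower and 17 were not called. Over all tested genes 50.9% were called at day 3 and 52.5% at day 5, about evenly split by direction. Their medians were 0.04 and 0.02, near those of all tested genes.

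Among the other ligand, receptor and binding genes, Igf2, the second ligand, was higher in KO at both days. Its level was 6865 ± 1489 CPM in KO libraries and 2008 ± 331 CPM in controls at day 3 (SD, n = 3 each; 1.77 ± 0.189, adjusted p = 5.17e-06), and 3926 ± 728 and 809.5 ± 69.3 CPM at day 5 (n = 4 each; 2.28 ± 0.167, adjusted p = 2e-07). The receptor genes Igf2r (0.03, adjusted p = 0.856, and 0.15, adjusted p = 0.219) and Insr at day 5 (0.11, adjusted p = 0.234) were not called, and Insr was lower at day 3 (-0.41 ± 0.0893, adjusted p = 0.0016). Both were named after their values were seen. Igf2bp2 and Igf2bp3 encode RNA-binding proteins that bind Igf2 mRNA and do not bind IGF. Igf2bp2 was lower at both days (-1.02 ± 0.114 and -1.32 ± 0.0985, adjusted p = 7.75e-06 and 2.27e-07), and Igf2bp3 was lower at day 5 (-0.50 ± 0.0600, adjusted p = 1.24e-05) with 0.17 ± 0.0712 at day 3 (adjusted p = 0.0583). Of the 6 tested genes of this list, 1 was higher and 3 were lower at each day.

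Of 8 inhibitors of pappalysins and other proteases of the axis, 2 were higher and 3 lower at day 3, and 1 was higher and 4 lower at day 5. The serine proteases Htra3 and Htra1 changed in opposite directions. Htra3 was higher (2.24 ± 0.270 and 1.21 ± 0.213, adjusted p = 2.04e-05 and 0.000391), from 6.76 ± 0.700 to 31.9 ± 1.97 CPM at day 3. Htra1 was lower (-1.33 ± 0.178 and -0.81 ± 0.152, adjusted p = 4.24e-05 and 0.000595), at 229 ± 26.4 CPM in KO and 574 ± 38.8 CPM in control at day 3. Furin, a proprotein convertase, was lower at both days (-0.67 ± 0.120 and -0.82 ± 0.103). Stc2, a secreted inhibitor of both pappalysins, was named after its values were seen. Its level was 47.2 ± 5.01 CPM in KO libraries against 187 ± 11.2 CPM in controls at day 3 (-1.97 ± 0.378, adjusted p = 0.00112) and lower by 2.41 on the log2 scale at day 5 (-2.41 ± 0.363, adjusted p = 0.000196).

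Of 8 tested relatives with an IGFBP-type domain, 5 were higher and 1 lower at day 3, and 4 were higher and 1 lower at day 5. These are mostly CCN matricellular proteins. Ccn3 was higher at both days (2.75 ± 0.285 and 1.97 ± 0.238, adjusted p = 1.04e-05 and 2.97e-05). Ccn5 was higher by 4.38 ± 0.604 at day 3 (adjusted p = 0.000115) and 1.82 ± 0.458 at day 5 (adjusted p = 0.00585), or 2.46 ± 0.374 at day 5 without control replicate 4 (adjusted p = 0.000228). Ccn4 was lower by 1.09 and 0.59 on the log2 scale (-1.09 ± 0.239 and -0.59 ± 0.204, adjusted p = 0.00215 and 0.0277), and its day 5 call was lost in 10 of 26 alternative settings, 6 of them single libraries left out (KO replicates 2, 3 and 4 and control replicates 1, 2 and 3 of day 5; adjusted p 0.0511 to 0.0769). Without control day 5 replicate 4, Ccn4 was at -0.79 ± 0.116 (adjusted p = 3.83e-05). With the litter number as a covariate Ccn4 was not called at day 3 either (-0.48, adjusted p = 0.22). Ccn4 and Ccn5 groups overlapped at day 5.

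In the signalling lists the adaptor Irs1, which couples the receptor to PI3K, was higher at both days (1.70 ± 0.108 and 0.89 ± 0.0906, adjusted p = 8.26e-08 and 2.94e-06). Irs1 stood at 185 ± 12.2 CPM in KO libraries against 57.0 ± 7.85 CPM in controls at day 3, and 179 ± 11.8 and 96.8 ± 9.09 CPM at day 5. Irs2 was called as higher at day 5 (0.86 ± 0.138, adjusted p = 0.000157) with 0.03 ± 0.165 at day 3 (adjusted p = 0.915). The adaptor Shc1 was lower (-0.32 ± 0.115 and -0.77 ± 0.0989, adjusted p = 0.0299 and 2.18e-05), a day 3 call lost in 5 of 26 settings (without KO day 3 replicate 2 or 3 or control day 3 replicate 2 or 3, adjusted p 0.069 to 0.141). Of 6 tested adaptors, 3 were higher and 1 lower at day 3, and 2 were higher and 2 lower at day 5. Of 13 PI3K, AKT and FOXO genes, 3 were higher and 5 lower at day 3, and 3 were higher and 7 lower at day 5. The regulatory subunit gene Pik3r3 was higher (2.17 ± 0.173 and 0.48 ± 0.132), while Pik3r2, which encodes another regulatory subunit, was lower at both days (-0.31 ± 0.0890 and -0.62 ± 0.0754).

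Of 8 mTORC1 genes, which lie downstream of AKT, 4 were higher and 3 lower at day 3, and 2 were higher and 2 lower at day 5. Eif4ebp1, a repressor of translation that mTORC1 inactivates, was lower at both days (-1.03 ± 0.111 and -1.26 ± 0.0961, adjusted p = 5.57e-06 and 2.66e-07), from 195 ± 9.04 to 94.6 ± 15.7 CPM at day 3. Mlst8, a subunit of both mTOR complexes, was higher (0.34 ± 0.0882 and 0.80 ± 0.0734). Tsc1, which restrains mTORC1, was lower at day 3 (-0.46 ± 0.0711, adjusted p = 0.000126) with 0.02 ± 0.0604 at day 5 (adjusted p = 0.795).

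**Figure D5:**
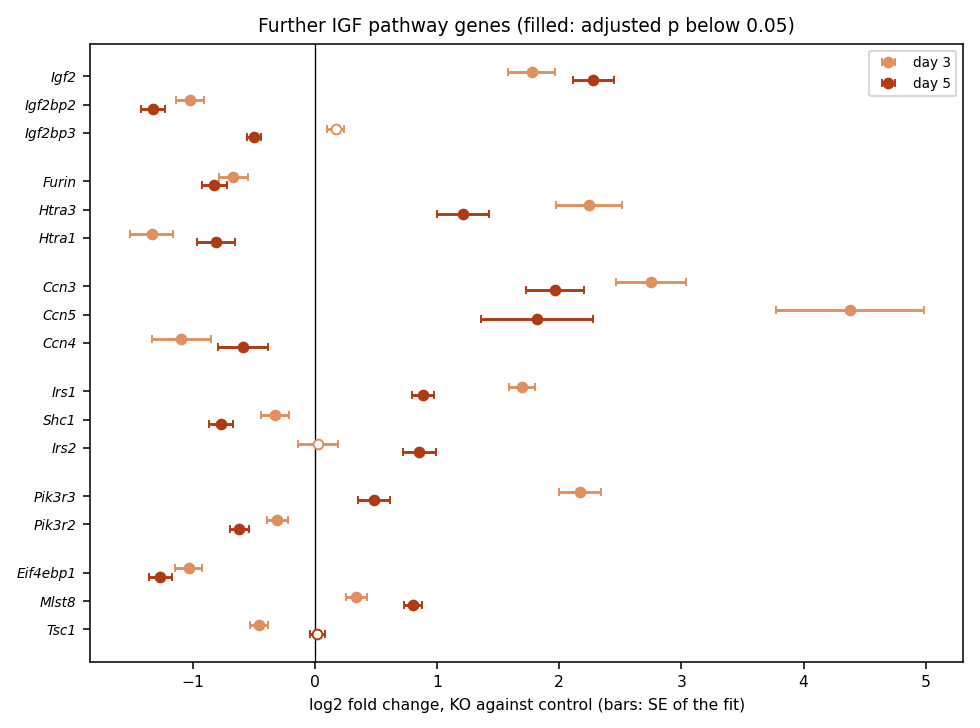
Log2 fold change of KO against control for 17 further pathway genes at day 3 and day 5, with SE bars, grouped by list from ligands at the top to mTORC1 at the bottom and filled where the adjusted p was below 0.05. Genes lie on both sides of 0 in each list, with Igf2, Htra3, Ccn3, Ccn5, Irs1 and Pik3r3 to the right at both days.

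The genes whose log2 CPM was most like each member's over the 14 libraries were found among 11857 candidates, as a description in which genotype and day are shared by all points. For Igf1 they were Slc25a16 (r = 0.974) and Slco1a5 (0.966), for Igf1r Flnc (0.894) and Piezo1 (0.868), and for Igfbp2 Rictor (0.992) and Ntrk3 (0.99). Gria1 (0.947) was among them for Igfbp3. For Igfbp4 they were Shank1 (0.986) and Sdc2 (0.983), and for Igfbp5 Gtf3c3 (0.944) and Vps25 (0.94). Likeness was weaker for Igfbp6, with Nup210l (0.788) and Reep4 (0.784), and for Igfbp7, with Exoc7 (0.758) and Map3k10 (0.755). For Pappa they were Bdnf (0.923) and Lamb2 (0.891), and for Pappa2 Sorl1 (0.923) and Fmn1 (0.92).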

How the data were processed

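RNA of 14 MEF libraries was sequenced as 80 bp paired-end reads from a stranded mRNA kit, per the labels' protocols. Per the submitters' processing notes, featureCounts assigned reads to genes of mm10. For the aligner, the tool's version, the annotation release and the strand setting, nothing was given in the sources used. The authors deposited unnormalized read counts, 1 file per library, beside each identifier's length, per the file headers. Lines without an identifier (909 of 27179, 0.194% to 0.315% of counts) were left out, as were 112 genes of the Y chromosome with Xist and Tsix, since sexes are unequal between groups. Of 26270 identifiers, 25275 had a symbol.

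Counts were tested with edgeR 4.0.16 (R 4.3.3, limma 3.58.1): filterByExpr, which kept 14327 genes, TMM scaling, and 1 robust quasi-likelihood fit with a mean per group. P-values were adjusted by Benjamini and Hochberg's method in each comparison, and genes below 0.05 were called. SE is the log2 fold change over the root of F. Log2 CPM used a prior count of 2. FPKM used the gene length as deposited by the authors. DESeq2 1.42.0 was an alternative among 28 settings. The fit was tested on simulated data: at day 3 it recovered 93% of genes changed by 1 on the log2 scale and 100% of those changed by 2 (14102 genes), and at day 5 96% and 100% (14113 genes). In each simulation 100 genes per size were changed, far fewer than were called here, and genes with few counts were not chosen. The spread followed the trend over expression, with no outlying library and no shared embryo. These rates therefore do not cover genes such as Pappa2 or Igfbp2.

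The members and gene lists were chosen with earlier results of these data known. Besides the members and Kat5, up to 3 called genes per list with the smallest adjusted p are named, and for each member the 2 genes with the highest Pearson r among tested genes with a mean of at least 2 CPM. Of the genes these rules name, 2 are not reported here. Promoters came from RefSeq, for 9 of 10 members (not Pappa). Igfbp2 had 2 entries, and only the first listed was searched and shown.

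Libraries were treated as independent, although some share an embryo, so p-values describe the spread between these cultures. Counts of libraries within a group differed beyond sampling noise (chi-square per degree of freedom 3.19 to 76.6), so none was a copy. Embryo identifiers pair the days within a genotype: after removal of group means, the correlations between days were -0.0166, -0.0229 and 0.204 for KO embryos, and 0.02, 0.0767 and -0.0228 for control embryos.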

Additional observations from a re-analysis of the deposited data

Results flagged for a closer look

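Control day 5 replicate 4, the male library of embryo 219-e6-I, lay far from the other 3 day 5 controls in 9 of 12 values that stood outside their group. It held 1420.3 CPM of Igfbp2 against 86.6 to 168 CPM, 299 CPM of Pappa against 102 to 118 CPM, and 3.56 CPM of Pappa2 against 0.978 to 1.03 CPM. Ccn5 was 367 CPM there against 97.6 to 138 CPM, and Ccn4 209.7 CPM against 431 to 449 CPM. The summed FPKM of Igfbp2 to Igfbp7 was 1708 against 613 to 686, the Igfbp2 share 62.5% against 10.6% to 18.4%, and the Igfbp3 share 0.466% against 2.74% to 3.17%. Its cartilage and bone markers summed to 2592 CPM against 181 to 356 CPM. This library is also the only male control and the only control with prefix 219 and litter number 2, which cannot be told apart. The other 3 values were Pik3r3 in KO day 5 replicate 2 (63.5 CPM against 49.8 to 50.5), Pik3r2 in control day 5 replicate 1 (79.2 CPM against 88.5 to 89.3) and the Igfbp6 share in KO day 5 replicate 4 (0.732% against 1.24% to 1.30%). Chance alone puts about 1 in 20 groups past this limit.

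In the fit of all libraries the KO effect differed between the days, by edgeR's test of the difference (day 5 minus day 3), for Igfbp5 among the members (-1.20 ± 0.263, adjusted p = 0.00905). Among further pathway genes it was smaller at day 5 for Ccn5 (-2.56 ± 0.711, adjusted p = 0.0342), Irs1 (-0.81 ± 0.139, adjusted p = 0.0021) and Pik3r3 (-1.68 ± 0.216, adjusted p = 0.000299), and turned from 0.17 to -0.50 for Igf2bp3 (-0.67 ± 0.0931, adjusted p = 0.000576). It was more positive at day 5 for Irs2 (0.83 ± 0.216, adjusted p = 0.0204), Mlst8 (0.46 ± 0.115, adjusted p = 0.0159) and Tsc1 (0.48 ± 0.0932, adjusted p = 0.00444).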

How the results depend on the processing

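Of 520 alternative values for the members' KO effects, 481 kept their direction and their side of the threshold, 23 lost the call, 6 gained it and 10 turned sign. For the further genes the numbers were 852, 18, 4 and 10 of 884. The KO calls of Igf1, Igfbp4 and Igfbp5 at both days and of Igfbp2 and Igfbp3 at day 5 held in all 26 settings run for each. The Igfbp2 call at day 3 held in 25 and was lost with the litter number as a covariate (2.27, adjusted p = 0.0635). That covariate, added after seeing the data, gave 4620 called genes at day 3 in place of 7288. Its day 3 values rest on litter differences estimated at day 5, as said above for Igfbp2. It turned Pappa to -0.864 at day 3 and -0.0916 at day 5, Pappa2 to -0.364 and Tsc1 to -0.0194 at day 5, Irs2 to -0.0953 at day 3, and the Igfbp2 difference of effects to 0.172. The sign changes were all in values not called in the reported fit. Pappa at day 3 was -0.349 with sex as a covariate, -0.205 with the replicate block by number, -0.0666 in female libraries, and ran from -0.0498 (without KO day 3 replicate 4) to 0.114 with single libraries left out, also turning without control day 3 replicate 2 (-0.0387). Female libraries, chosen after seeing the data, also gave Igf1r at 0.0279 at day 3 and differences of the KO effects of 0.305 for Igfbp2 and -0.0557 for Igfbp6. Sex as a covariate gave Pappa2 at -0.111 at day 5. With single libraries left out the Igfbp2 difference of effects ran from -2.09 to 0.0473, the latter without control day 5 replicate 4. Pappa in control between the days ran from -0.642 (without control day 5 replicate 4) to 0.0314 (without control day 5 replicate 2). Irs2 at day 3 was -0.00179 with library totals, -0.035 with sex, -0.011 with the replicate block by number, -0.0128 with the day 3 controls of 1 embryo summed, and it ran from -0.182 (without KO day 3 replicate 2) to 0.177 with single libraries left out, also turning without control day 3 replicate 1 (-0.0524). Tsc1 at day 5 was -0.00268 with sex, and ran from -0.00646 (without control day 5 replicate 2) to 0.044 with single libraries left out. The cause of these changes was not tested.

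With the replicate block by embryo, which pairs the days, the Igfbp2 difference of effects was 0.0235, Pappa gained calls for that difference (0.72, adjusted p = 0.00816) and between the days in control (-0.59, adjusted p = 0.00136), as did Igfbp5 in control (0.54, adjusted p = 0.00369). No other call changed among the values run with this block. They covered the difference of effects for every member and Igfbp5 between the days in KO. In control they covered Igf1, Igf1r, Igfbp3, Igfbp5 and Pappa between the days. KO against control cannot be fitted with this block, since no embryo gave both genotypes. Embryos differ between the genotypes, so replicate numbers do not pair them by embryo. After removal of group means, libraries of equal number had correlations of -0.0507 and -0.021 at day 3 and of -0.166 to 0.428 at day 5. Libraries of the same embryo had -0.0229 to 0.204, so such correlations cannot decide whether equal numbers share anything else. The replicate block by number moved the counts of called genes to 6863 at day 3 and 7873 at day 5, and gave calls to the Igf1 difference of effects (-0.65, adjusted p = 0.0379) and to Igfbp3 between the days in control (-0.78, adjusted p = 0.0228).

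The Pappa2 call at day 3 was lost in 8 settings: sex or litter number as a covariate, the 2 control libraries of 1 embryo summed, and leaving out KO day 3 replicate 3 or 4 or any day 3 control (adjusted p up to 0.0963 among these last). The count of genes called between the days in KO was 1725 (713 higher, 1012 lower), ran from 1024 to 2549 with single libraries left out, and was 565 in female libraries. Library totals without scaling gave 1679 higher and 626 lower there, and shifted the median of all genes to 0.126. The count for the difference of effects was 2051 (1026 higher, 1025 lower), ran from 1275 to 2750, and split into 1508 and 705 with library totals. Without division by gene length the Igfbp2 share was 49.1% and 57.7% in KO at days 3 and 5, and the Igfbp7 share 38.6% and 32.4% in control. Depth limits Pappa2 most, with as few as 6 counts in a library.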
